A study of Mus musculus with 56 samples.

Results

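Ccl17, Ccl22 and Ccl24 are chemokine genes that macrophages switch on in response to interleukin-4 (IL-4). Every peak whose gene name was Ccl17, Ccl22 or Ccl24 was collected from 56 ChIP-seq peak lists of mouse bone marrow-derived macrophages (BMDMs), each list being the peaks of 1 library. This gave 256 peaks of 1610519 in all, 153 named for Ccl24, 73 for Ccl17 and 30 for Ccl22. Ccl24 had a peak in 55 of the 56 lists, Ccl17 in 39 and Ccl22 in 15.

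All libraries came from wild-type C57BL/6 mice aged 8 to 12 weeks, and the macrophages were grown from bone marrow for 6 days. There were 2 designs, both with 2 libraries per antibody and condition. In the 1 hr IL-4 experiment, untreated BMDMs were compared with BMDMs given 20 ng/ml IL-4 for 1 hr, using antibodies to H3K27Ac, p300, PU.1, HDAC1, HDAC2, HDAC3, RNAPII-pS5 and RNAPII-pS2. In the IL-4/LPS experiment, BMDMs were left alone (ctrl/ctrl), given IL-4 for 24 hr (IL-4 PT/ctrl, where PT stands for pretreatment), given 100 ng/ml lipopolysaccharide (LPS) for 1 hr (ctrl/LPS), or given IL-4 for 24 hr and then LPS for 1 hr (IL-4 PT/LPS), using antibodies to RNAPII-pS5, RNAPII-pS2 and p65. The dose of LPS is given in the unit of the labels, whereas the study's methods write the same figure in nM. The labels and the ChIP methods give HDAC3 the catalogue number of the H3K27Ac antibody, whereas the study's list of reagents gives HDAC3 a number of its own.

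IL-4 binds a receptor on the macrophage surface and activates the transcription factor STAT6, which enters the nucleus and switches on the genes of alternative macrophage polarization. Ccl17 and Ccl22 encode ligands of the receptor Ccr4 and draw type 2 helper and regulatory T cells, while Ccl24 (eotaxin-2) encodes a ligand of Ccr3 and draws eosinophils. LPS acts through a toll-like receptor and sends the NF-κB subunit p65 to the genome. Among the other proteins measured, PU.1 is the lineage factor that opens macrophage enhancers, p300 is the enzyme that places H3K27Ac (acetylated histone H3 at active promoters and enhancers), and HDAC1, HDAC2 and HDAC3 remove acetyl groups. RNA polymerase II phosphorylated at serine 5 (RNAPII-pS5) marks initiating and paused polymerase, and that phosphorylated at serine 2 (RNAPII-pS2) marks elongating polymerase.

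Peaks, not reads, were the data. The sequencing depth behind them is unknown, and in its place each list is judged by its size, from 8440 to 71027 peaks. A peak score below is minus log10 of the peak caller's p or q value (which of the 2 was not stated), except for H3K27Ac, where it is a normalized tag count. A gene score is the sum of the scores of all peaks with that gene name in a list, and a site score is the highest score at 1 site. Of 8 macrophage marker genes, 7 to 8 had a RNAPII-pS5 peak and 6 to 8 a RNAPII-pS2 peak in each list. Of the markers of other cells, Flt3 (dendritic cells), Cd3d (T cells) and Ms4a1 (B cells) had a peak in all 12 lists of each RNAPII antibody, Zbtb46 in 3 and Kit in 1 RNAPII-pS2 list, and Ccr7, Cd3e, Cd4, Cd8a, Cd79a, Pax5 and all 4 eosinophil and mast cell markers had none. In such bulk samples, fewer cells with a bound site cannot be told apart from less protein per cell, and a list without a peak does not show that a protein was absent. The 4 RNAPII-pS2 lists of the 1 hr IL-4 experiment carried peak names of the opposite treatment to their labels. The names matched in the other 24 lists checked, those of HDAC1, HDAC2, HDAC3, PU.1, RNAPII-pS5 and p300 in that experiment. H3K27Ac lists and the lists of the IL-4/LPS experiment were not checked. Results from the 4 RNAPII-pS2 lists are given for the libraries as labelled.

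Ccl24 lies on the minus strand of chromosome 5 (chr5:135569937-135573049, mm10), and Ccl22 (chr8:94745590-94751699) and Ccl17 (chr8:94810453-94812036) lie on the plus strand of chromosome 8, with starts 64.9 kb apart. Overlapping peaks formed 7 sites at Ccl24, 8 at Ccl22 and 8 at Ccl17, and each is named by its distance from the gene start. At Ccl24 most peaks fell on a promoter site (chr5:135572825-135573504), a site 9.5 kb upstream (-9.5 kb, chr5:135581996-135583049) and a site downstream (+4.2 kb, chr5:135567465-135570007). At +4.2 kb the H3K27Ac, p300, PU.1 and HDAC peaks lie past the gene, and only a RNAPII-pS5 peak reaches its 3′ end. Of the Ccl24 peaks, 103 were annotated as intergenic and 42 as promoter. Ccl17 peaks concentrated at -8.0 kb (chr8:94801647-94802881) and at the 3′ end of the gene (+1.5 kb, chr8:94811668-94812413), and only 4 of the 73 lay in its promoter. Ccl22 had 10 promoter peaks (chr8:94745324-94745891) and 14 intergenic ones.

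**Figure D1:**
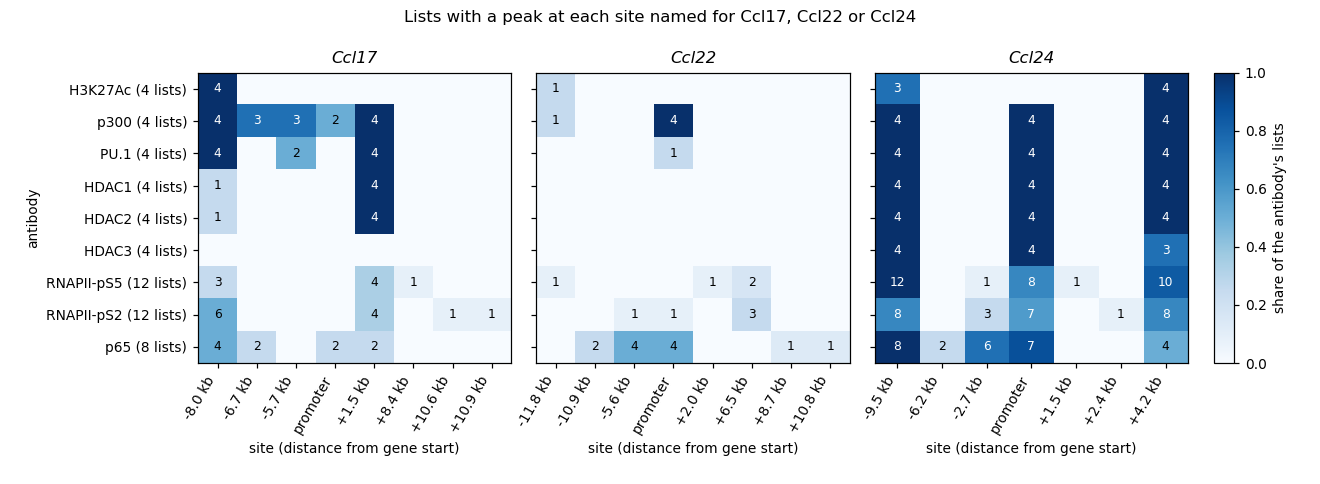
Number of lists with a peak at each site named for Ccl17, Ccl22 or Ccl24 (columns, by distance from the gene start), for each antibody (rows); colour is the share of that antibody's lists. p300, PU.1, HDAC1 and HDAC2 had a peak at the Ccl24 -9.5 kb, promoter and +4.2 kb sites in all 4 of their lists, and no HDAC list had a peak at Ccl22.

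The sites did not carry the same proteins. p300 and PU.1 had peaks in all 4 of their lists at the Ccl24 promoter, -9.5 kb and +4.2 kb sites and at the Ccl17 -8.0 kb and +1.5 kb sites. HDAC1 and HDAC2 were found at the same Ccl24 sites and at Ccl17 +1.5 kb in all of their lists, but HDAC3 had no peak named for Ccl17. None of the HDAC antibodies had a peak named for Ccl22, where p300 had a promoter peak in 4 of 4 lists and PU.1 in 1 of 4. H3K27Ac peaks were limited to Ccl24 +4.2 kb (4 of 4 lists), Ccl24 -9.5 kb (3 of 4), Ccl17 -8.0 kb (4 of 4) and Ccl22 -11.8 kb (1 of 4). The Ccl24 -6.2 kb and Ccl22 -10.9 kb sites were seen with p65 alone, in 2 lists each.

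The sequences of 5 windows are given because they hold the promoters and the p65 sites on which the LPS results turn. RefSeq promoters (GRCm38.p6, 300 bases around the gene start) were matched for Ccl22 (chr8:94745434-94745733, plus strand) and Ccl17 (chr8:94810203-94810502, plus strand), that is, for 2 of the 3 genes. The p65 windows are 300 bases at Ccl24 -2.7 kb (chr5:135575593-135575892), Ccl24 -6.2 kb (chr5:135579067-135579366) and Ccl22 -10.9 kb (chr8:94734657-94734956), read on the plus strand of mm10. Capitals mark matches on either strand to the STAT6 palindrome TTCNNNNGAA, the NF-κB motif GGGANNNNCC, its form GGGGNNNNCC, added after the windows had been seen, and the PU.1 core GAGGAA.
Ccl22 promoter: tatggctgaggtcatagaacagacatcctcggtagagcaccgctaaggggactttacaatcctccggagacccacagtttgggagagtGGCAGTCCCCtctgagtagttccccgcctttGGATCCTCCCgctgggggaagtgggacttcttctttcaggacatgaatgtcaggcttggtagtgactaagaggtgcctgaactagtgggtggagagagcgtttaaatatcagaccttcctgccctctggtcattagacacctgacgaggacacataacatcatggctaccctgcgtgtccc
Ccl17 promoter: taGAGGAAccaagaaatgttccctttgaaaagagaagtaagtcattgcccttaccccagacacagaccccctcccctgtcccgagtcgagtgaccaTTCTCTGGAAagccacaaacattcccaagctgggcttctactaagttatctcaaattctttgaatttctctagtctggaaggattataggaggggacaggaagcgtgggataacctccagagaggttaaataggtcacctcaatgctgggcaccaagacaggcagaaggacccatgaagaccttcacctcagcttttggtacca
Ccl24 -2.7 kb: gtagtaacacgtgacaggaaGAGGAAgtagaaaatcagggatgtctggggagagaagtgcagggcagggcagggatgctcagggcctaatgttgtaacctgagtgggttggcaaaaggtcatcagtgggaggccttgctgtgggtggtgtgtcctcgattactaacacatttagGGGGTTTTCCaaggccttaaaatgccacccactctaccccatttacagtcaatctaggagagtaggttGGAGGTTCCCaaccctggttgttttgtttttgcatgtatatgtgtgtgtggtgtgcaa
Ccl24 -6.2 kb: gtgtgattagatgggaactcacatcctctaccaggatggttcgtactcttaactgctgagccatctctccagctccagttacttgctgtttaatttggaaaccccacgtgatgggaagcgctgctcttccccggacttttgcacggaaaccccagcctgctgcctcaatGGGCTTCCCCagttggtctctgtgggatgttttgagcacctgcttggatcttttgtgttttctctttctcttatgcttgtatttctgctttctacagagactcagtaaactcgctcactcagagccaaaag
Ccl22 -10.9 kb: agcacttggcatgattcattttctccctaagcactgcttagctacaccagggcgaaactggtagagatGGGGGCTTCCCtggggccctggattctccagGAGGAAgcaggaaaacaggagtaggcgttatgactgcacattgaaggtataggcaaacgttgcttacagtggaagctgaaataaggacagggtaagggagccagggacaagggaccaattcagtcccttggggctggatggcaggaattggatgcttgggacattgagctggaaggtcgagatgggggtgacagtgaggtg

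The Ccl17 promoter window held a STAT6 palindrome, TTCTCTGGAA, starting at base 97 of the window, a motif present in 7.0% of 32841 promoters and 11.2% of 51391 p65 windows of the same length. An NF-κB motif, GGATCCTCCC, was found in the Ccl22 promoter window at base 120, with GGCAGTCCCC of the added form at base 89. The Ccl24 -2.7 kb window held GGAGGTTCCC at base 243 and GGGGTTTTCC of the added form at base 175, and also a PU.1 core at base 21. Its neighbour at -6.2 kb held only GGGCTTCCCC, of the added form, at base 170. In the Ccl22 -10.9 kb window GGGGCTTCCC at base 70 matched both forms, which overlap there, and a further match of the added form started at base 69. The 2 NF-κB forms were found in 20.7% and 18.7% of promoters and in 23.4% and 18.2% of p65 windows, and the PU.1 core in 28.3% and 43.4%, so matches of this kind are common and are given as a description.

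Whether IL-4 changed the proteins at these genes within 1 hr was asked with the first experiment. Differences were tested with limma on log2 scores over all genes, or all sites, of an antibody, each list being centred on the median of the features with a peak in every list, and a change was called at an adjusted p (Benjamini-Hochberg over all features) of at most 0.05. A list without a peak was given the lowest score of that antibody and experiment. Changes are given as folds only where every list of both groups had a peak, since an imputed score has no spread of its own. Some log2 changes given below, chiefly those with a list left out or under another setting, rest partly on imputed scores. With 2 lists per group an exact permutation test of a single value cannot go below p = 0.333.

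Acetylation of H3K27 rose at Ccl24 within 1 hr of IL-4. The summed tag count of its peaks was 62.0 and 51.9 in the untreated lists and 130.4 and 137.5 after IL-4. Both IL-4 lists lay above both untreated lists, a 2.37-fold rise (log2 change 1.25 ± 0.11 SE, adjusted p = 0.00804). Of all genes tested for H3K27Ac, 32.8% were called, and of the 2 members with enough peaks 1 was called.

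The increase was at both acetylated sites of the gene. At +4.2 kb, past the 3′ end of Ccl24, the tag count went from 50.6 and 51.9 to 109.9 and 117.0, a 2.30-fold rise (log2 change 1.20 ± 0.07, adjusted p = 0.00212). At -9.5 kb it was 11.4 in 1 untreated list, without a peak in the other, and 20.5 in both IL-4 lists (adjusted p = 0.0109). These 2 of the 3 member sites tested were called, where 40.3% of all sites were.

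The other genes did not show this rise. Ccl17, acetylated only at -8.0 kb, had tag counts of 17.8 and 18.1 in untreated BMDMs and 14.9 and 12.2 after IL-4. Both IL-4 lists were lower, but the difference did not pass the test (log2 change -0.41 ± 0.12, adjusted p = 0.0777). Near Ccl22 a single untreated list had an H3K27Ac peak (-11.8 kb, tag count 10.3), too few for a test.

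The acetyltransferase p300 was found at all 3 genes, and its lists differed in size. The first untreated list had 44787 peaks with a median score of 11.04, against 66710 to 69360 peaks and 18.18 to 19.23 in the other 3, and the lowest p300 score of each of the 3 genes was in that list. None of the 3 member genes and none of the 9 member sites passed the limma test, whereas 2 genes and 2 sites had an unadjusted p of at most 0.05. Over all p300 genes none of 15708 was called and 4053 had an unadjusted p of at most 0.05, and of all p300 sites 2.46% were called.

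At the Ccl24 promoter the p300 score was 39.29 and 109.64 in untreated BMDMs and 211.51 and 200.83 after IL-4 (log2 change 0.98 ± 0.29, adjusted p = 0.144). The summed p300 score of Ccl24 went from 122.9 and 373.25 to 532.58 and 543.66 (log2 change 0.48 ± 0.15, adjusted p = 0.176). In both cases the IL-4 lists lay above both untreated lists in deposited scores. The median log2 p300 score was itself higher after IL-4, by 0.85 for genes and 0.67 for sites. The share of all features with this order was not computed. The Ccl17 promoter, which holds the STAT6 palindrome shown above, had no p300 peak in either untreated list and scores of 32.81 and 27.56 after IL-4 (adjusted p = 0.0651). Only features with a peak in at least 2 lists were tested, and this site passed that filter through the IL-4 lists alone. The direction of its change was therefore set beforehand, with both untreated scores imputed. Leaving out an untreated list gave log2 changes of 2.99 to 4.57, and whether the change was called depended on which lists were used.

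The remaining p300 sites of Ccl17 and Ccl22 showed no such order. Ccl17 as a whole scored 23.83 and 127.78 untreated and 84.56 and 105.45 with IL-4, and the groups overlapped (adjusted p = 0.888). At Ccl17 -8.0 kb the scores were 9.9 and 46.25 untreated and 15.98 and 23.78 with IL-4 (adjusted p = 0.285). Ccl22 scored 7.51 and 26.93 untreated and 11.75 and 16.23 with IL-4 (log2 change -0.90 ± 0.22 once centred, adjusted p = 0.134).

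PU.1 was at Ccl24 and Ccl17 before IL-4 was added. Its summed score at Ccl24 was 176.79 and 169.2 untreated and 283.4 and 242.58 after IL-4, and after centring the difference was within the spread between lists (log2 change 0.31 ± 0.29, adjusted p = 0.775). At Ccl17 -8.0 kb the PU.1 scores were 8.82 and 7.31 untreated and 14.78 and 18.55 with IL-4 (adjusted p = 0.711). Ccl17 +1.5 kb scored 62.35 and 26.72 before and 49.85 and 52.94 after, and the groups overlapped. At Ccl22 the only PU.1 peak was a promoter peak in the second untreated list, with a score of 3.03.

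The deacetylases were also in place before IL-4. Summed HDAC1 scores at Ccl24 were 46.88 and 36.44 untreated and 39.96 and 28.42 with IL-4 (adjusted p = 0.935). HDAC2 scored 41.94 and 28.32 against 59.06 and 33.36 (adjusted p = 0.938). HDAC3 scored 83.88 and 40.03 against 88.24 and 86.23 (adjusted p = 0.882), with most of it at the promoter (53.97 and 29.32 against 55.62 and 52.59). The groups overlapped for HDAC1 and HDAC2, and both HDAC3 lists with IL-4 lay above the untreated ones by less than the spread between these. At Ccl17 +1.5 kb HDAC1 scored 10.06 and 4.93 against 8.5 and 5.04, and HDAC2 17.25 and 9.26 against 26.15 and 9.35. Among the member genes and sites of PU.1, HDAC1, HDAC2 and HDAC3 none was called and none had an unadjusted p of at most 0.05 (limma). Over all features of these 4 antibodies no gene or site was called either, and 925 to 1604 genes had an unadjusted p of at most 0.05.

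**Figure D2:**
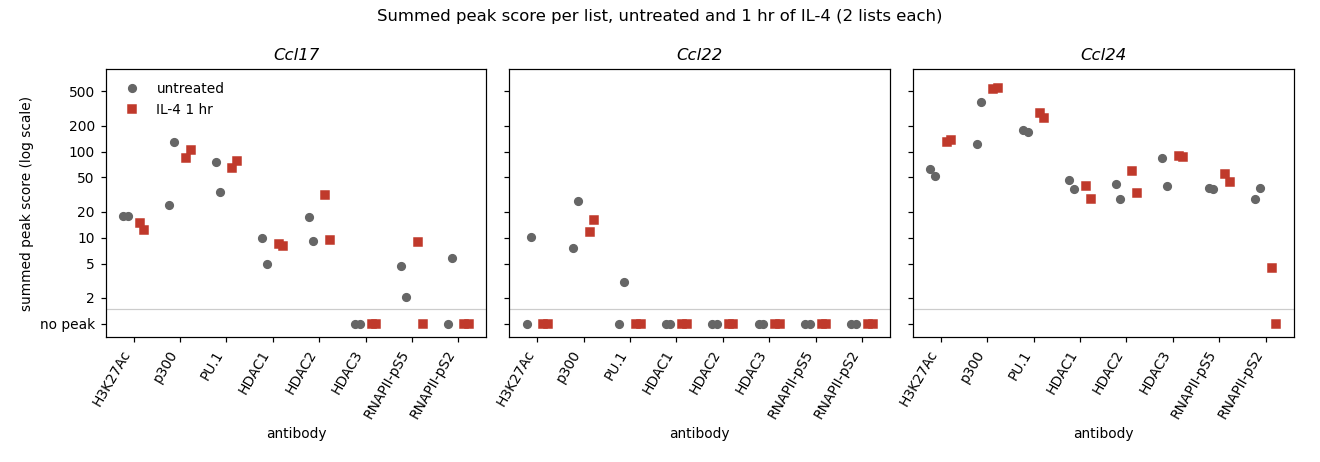
Summed peak score (log scale) of Ccl17, Ccl22 and Ccl24 in each list of the 1 hr IL-4 experiment, by antibody; grey circles are untreated and red squares IL-4 1 hr, with lists without a peak on the bottom row. The H3K27Ac scores of Ccl24 rose from 62.0 and 51.9 to 130.4 and 137.5; RNAPII-pS2 is plotted by its labels.

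Initiating polymerase was measured at Ccl24 and, in small amounts, at Ccl17. RNAPII-pS5 scored 37.58 and 36.42 at Ccl24 in untreated BMDMs and 55.11 and 43.91 with IL-4, with both IL-4 lists higher (log2 change 0.46 ± 0.24, adjusted p = 0.502). The part past the 3′ end (+4.2 kb) went from 12.58 and 8.74 to 26.28 and 17.71, while the promoter gave 20.24 and 18.66 before and 18.29 and 17.0 after. The groups did not overlap at +4.2 kb, but the difference did not pass the test (log2 change 1.15 ± 0.28, adjusted p = 0.116). RNAPII-pS5 at Ccl17 +1.5 kb was 4.76 and 2.06 untreated and 8.89 in 1 of the 2 IL-4 lists. Ccl22 had no RNAPII peak of either kind in this experiment. No member gene or site of RNAPII-pS5 was called by limma, with an unadjusted p of at most 0.05 at 0 genes and 1 site, where 1.05% of all genes and 2.97% of all sites were called.

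RNAPII-pS2 at Ccl24 was lower with IL-4 by its labels, without passing the test. The libraries labelled untreated scored 28.25 and 37.56, all at +4.2 kb, and those labelled IL-4 had a single peak of 4.5, at the promoter, in the first library and none in the second (adjusted p = 0.0903 for the gene and 0.0592 for +4.2 kb). Peak names in these 4 lists state the opposite treatment, as described above, and under those names the direction would turn. Over 13 tested genes of the IL-4 pathway the median RNAPII-pS2 change was -1.88 by the labels, beside 0.72 over 15 genes for RNAPII-pS5.

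The second experiment asked what IL-4 for 24 hr does to the response to LPS. LPS changed the number of p65 peaks, from 9556 to 9706 in ctrl/ctrl lists and 10253 to 11026 in IL-4 PT/ctrl lists to 26305 to 26820 in ctrl/LPS and 36738 to 38955 in IL-4 PT/LPS. The median log2 p65 score of genes with a peak in every list was 1.64 higher with LPS, and 0.50 higher again with IL-4 PT before LPS (1.04 and 0.27 for sites). The median of RNAPII-pS5 moved by -0.33 with LPS and by 0.29 with IL-4 PT under LPS, and that of RNAPII-pS2 by 0.22 with LPS. In the 1 hr experiment p300 moved by 0.85, HDAC1 by -0.46, HDAC3 by 0.42 and PU.1 by 0.29. All changes here are relative to those medians, and scores are given as deposited.

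p65 peaks were found at Ccl24 without LPS and at Ccl17 and Ccl22 only with it. Neither ctrl/ctrl nor IL-4 PT/ctrl lists had a p65 peak named for Ccl17 or Ccl22. In ctrl/LPS lists Ccl22 scored 18.61 and 18.23 and Ccl17 scored 11.85 and 10.13. The groups did not overlap at either gene, and both rises were called (adjusted p = 0.00216 for Ccl22 and 0.007 for Ccl17), 2 of the 3 members, where 30.9% of all genes with a peak in either group were called. Both rest on imputed scores for the lists without LPS: with a floor 4 times as high Ccl22 was no longer called (adjusted p = 0.284), and Ccl17 turned to -0.58 relative to the median gene (adjusted p = 0.0169).

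IL-4 PT before LPS gave Ccl22 a higher p65 score than LPS alone. Its summed score was 18.61 and 18.23 in ctrl/LPS and 54.49 and 51.13 in IL-4 PT/LPS, and every IL-4 PT/LPS list was above every ctrl/LPS list. Relative to the median gene this was 2.02-fold (log2 change 1.01 ± 0.22, adjusted p = 0.0365), and 12.6% of genes were called in this comparison. Leaving out any 1 of the 6 lists with no IL-4 or with both agents kept the change between 0.91 and 1.12 and took the adjusted p to between 0.0629 and 0.268, so the call needs every one of these lists. Without intergenic peaks the change was 0.72 and was not called (adjusted p = 0.225).

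Ccl24 had the highest summed p65 scores in the same lists, but they varied more. Its scores were 16.85 and 4.58 in ctrl/ctrl, 20.14 and 28.91 in IL-4 PT/ctrl, 52.8 and 41.36 in ctrl/LPS, and 144.03 and 172.39 in IL-4 PT/LPS. No list of a later group in this order overlapped an earlier one. The number of p65 peaks per list rose in the same order, and the share of all genes with this order was not computed. None of the steps passed the test: the log2 change was 1.60 ± 0.64 for IL-4 PT alone (adjusted p = 0.298), 0.77 ± 0.64 for LPS (adjusted p = 0.394) and 1.25 ± 0.64 for IL-4 PT under LPS (adjusted p = 0.295). Without the first ctrl/ctrl list the change with IL-4 PT alone was 2.54 and was called (adjusted p = 0.0434), and without the second it was 0.61 (adjusted p = 0.656). Ccl17 scored 11.85 and 10.13 in ctrl/LPS and 23.52 and 21.62 in IL-4 PT/LPS, without overlap but without passing the test (log2 change 0.54 ± 0.23, adjusted p = 0.224).

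The p65 sites of Ccl24 differed from each other. At -2.7 kb (chr5:135575501-135575986), the window with both NF-κB forms, ctrl/ctrl lists had no peak, IL-4 PT/ctrl lists scored 6.66 and 4.18, ctrl/LPS lists 8.63 and 9.05, and IL-4 PT/LPS lists 58.28 and 61.79. Either agent alone brought a low peak (adjusted p = 0.00859 for IL-4 PT and 0.00416 for LPS), and IL-4 PT before LPS gave a 5.64-fold higher score than LPS alone (log2 change 2.49 ± 0.24, adjusted p = 0.000809). The call for IL-4 PT alone was lost without the first or the second ctrl/ctrl list (adjusted p = 0.0644 and 0.0658), and a floor 4 times as high ended it (adjusted p = 0.366) and turned the LPS change to -0.29 relative to the median site. In the upper 50% of peaks alone the 5.64-fold difference missed the threshold (adjusted p = 0.0505).

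A second site of Ccl24 was seen only with both agents. At -6.2 kb (chr5:135579057-135579377) the IL-4 PT/LPS lists scored 23.3 and 37.62 and none of the other 6 p65 lists had a peak (adjusted p = 0.000308 against ctrl/LPS). The site passed the filter of 2 lists only through the IL-4 PT/LPS lists, so the direction of its call was set beforehand. The call was kept under every alternative that gave a value, but these could not test that direction. Without either IL-4 PT/LPS list the site could not be fitted. The Ccl24 -9.5 kb site, bound by PU.1 and p300 in untreated cells, had a p65 peak in all 8 lists, at 4.75 and 4.58 in ctrl/ctrl, 8.63 and 14.78 in IL-4 PT/ctrl, 30.12 and 16.05 in ctrl/LPS and 49.31 and 46.51 in IL-4 PT/LPS. Its groups did not overlap, in the same order as the number of p65 peaks per list. No step was called (adjusted p = 0.199 for IL-4 PT alone, 0.0637 for LPS and 0.198 for IL-4 PT under LPS). Without the second ctrl/LPS list the LPS change was 1.66 and was called. The Ccl24 promoter scored 8.18 in 1 ctrl/ctrl list, 4.85 and 2.46 in IL-4 PT/ctrl, 7.8 and 16.26 in ctrl/LPS and 13.14 and 18.53 in IL-4 PT/LPS, with overlapping groups.

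At Ccl22 the p65 peaks were at the promoter and upstream. The promoter scored 8.52 and 14.46 with LPS (adjusted p = 0.00465 against ctrl/ctrl, which had no peak) and 26.56 and 23.4 with IL-4 PT before LPS, higher in both lists (log2 change 0.90 ± 0.29, adjusted p = 0.0695, or 0.0126 without the second ctrl/LPS list). At -5.6 kb (chr8:94739792-94740300) the LPS scores were 5.63 and 3.77 and the IL-4 PT/LPS scores 17.89 and 17.76, a 3.21-fold difference (log2 change 1.68 ± 0.24, adjusted p = 0.00371). Without the first or the second IL-4 PT/LPS list that call was lost (adjusted p = 0.0684 and 0.0584). The rise at -5.6 kb with LPS alone was barely past the threshold (adjusted p = 0.0468): it was lost without any 1 of 7 lists (adjusted p = 0.083 to 0.188), and with a floor 4 times as high (5.24, above 1 of the 2 LPS scores) or the upper 50% of peaks it turned to -0.99 and -0.90 relative to the median site.

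The most distant p65 site of Ccl22 appeared only with both agents. At -10.9 kb (chr8:94734671-94734969) the IL-4 PT/LPS lists scored 4.33 and 9.97 and no other list had a peak (adjusted p = 0.00937 against ctrl/LPS, and 0.608 with a floor 4 times as high). Single peaks were found at Ccl22 +8.7 kb in the first ctrl/LPS list (4.46) and at Ccl22 +10.8 kb in the first IL-4 PT/LPS list (5.71).

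The p65 peaks at Ccl17 differed in position between LPS alone and LPS after IL-4. With LPS alone, peaks were at -8.0 kb (5.55 and 5.54, adjusted p = 0.00629) and at the 3′ end, +1.5 kb (6.3 and 4.59, adjusted p = 0.0147). With IL-4 PT before LPS the +1.5 kb peak was missing from both lists (adjusted p = 0.000794), while -8.0 kb scored 8.63 and 9.0 (log2 change 0.40 ± 0.17, adjusted p = 0.137). In those lists peaks appeared at -6.7 kb (6.65 and 4.21, adjusted p = 0.00533) and at the promoter (4.47 and 8.41, adjusted p = 0.00474), the window with the STAT6 palindrome. All of these were low scores: with a floor 4 times as high the changes with LPS turned to -0.96 at -8.0 kb and -0.91 at +1.5 kb, and the calls for IL-4 PT under LPS were lost at +1.5 kb (adjusted p = 0.063), -6.7 kb (0.661) and the promoter (0.808). The +1.5 kb call with LPS was also lost without the first or the second ctrl/ctrl list (adjusted p = 0.0828 and 0.0866).

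Over the p65 sites of the 3 genes, IL-4 PT under LPS gave 7 calls of 12 sites, 6 of them higher, where 31.7% of all sites were called. LPS alone gave 5 of 8 sites, all higher, against 39.6% of all sites, and IL-4 PT alone gave 1 of 4 against 9.72%. Ccl24 -6.2 kb, Ccl22 -10.9 kb, Ccl17 -6.7 kb and the Ccl17 promoter had p65 peaks in the IL-4 PT/LPS lists alone. Ccl17 +1.5 kb had them in the ctrl/LPS lists alone. These sites passed the filter of 2 lists only through the group where they are high. The direction of their calls was therefore set beforehand.

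**Figure D3:**
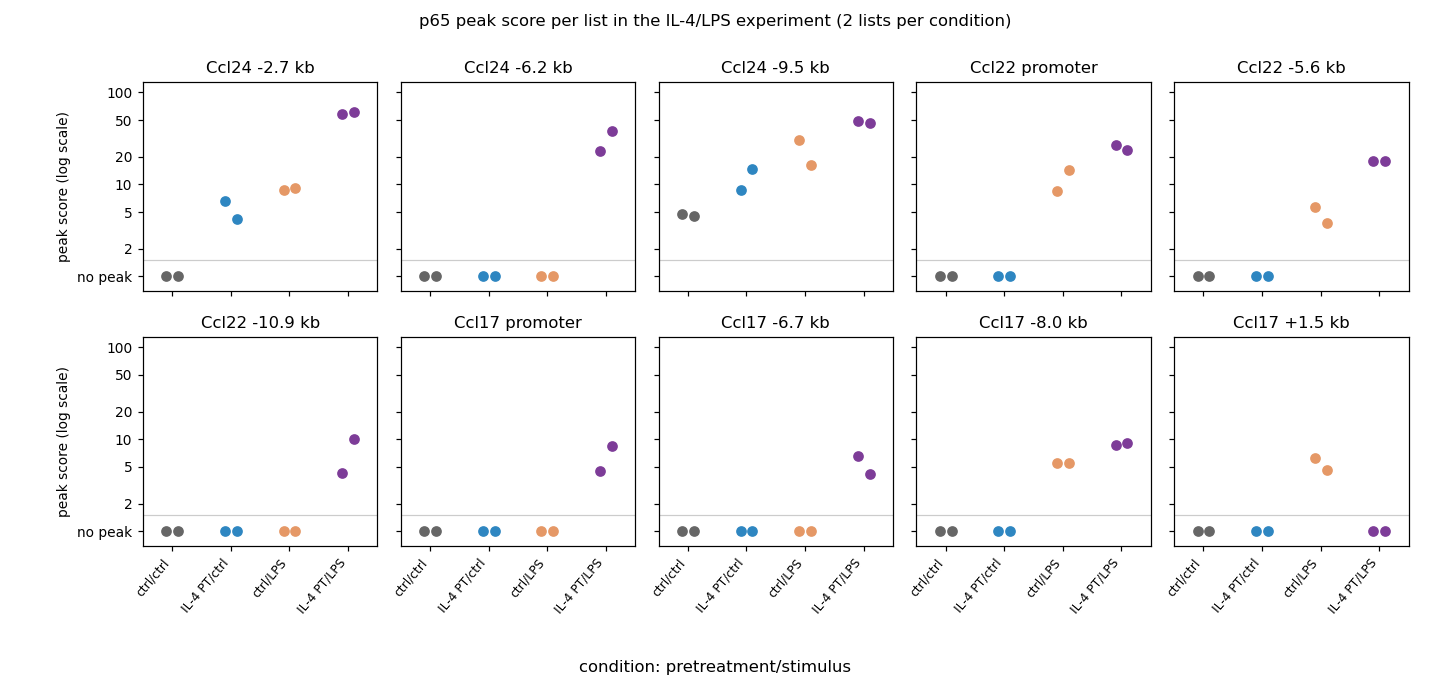
p65 peak score (log scale) in each of the 8 lists of the IL-4/LPS experiment at 10 sites of Ccl24, Ccl22 and Ccl17, by condition, with lists without a peak on the bottom row. At Ccl24 -2.7 kb the IL-4 PT/LPS lists reached 58.28 and 61.79, and at Ccl17 +1.5 kb only the ctrl/LPS lists had a peak.

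RNA polymerase at the Ccl24 promoter fell with IL-4 for 24 hr. RNAPII-pS5 there scored 28.44 and 31.32 in ctrl/ctrl and 9.79 and 6.24 in ctrl/LPS, and no IL-4 PT/ctrl or IL-4 PT/LPS list had a peak. The loss with IL-4 PT was called without LPS (adjusted p = 0.00216) and under LPS (adjusted p = 0.00447), and the fall with LPS alone was called too (log2 change -1.75 ± 0.30, adjusted p = 0.00769). RNAPII-pS2 at the promoter scored 36.56 and 30.11 in ctrl/ctrl, 8.87 and 10.16 in IL-4 PT/ctrl, 32.52 and 27.42 in ctrl/LPS, and had no peak in either IL-4 PT/LPS list. It fell with IL-4 PT alone (log2 change -1.75 ± 0.22, adjusted p = 0.00284) and under LPS (adjusted p = 0.000924), and with LPS alone the groups overlapped (adjusted p = 0.303). For RNAPII-pS5 the call under LPS was lost with a floor 4 times as high (adjusted p = 0.117) and in the upper 50% of peaks (0.398), and in the latter the call for LPS alone was lost too (0.0724).

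The +4.2 kb site of Ccl24, most of it past the gene, did not follow the promoter. In all, 6 RNAPII peaks at +4.2 kb carry the name Ccl26, the next gene 6.4 kb downstream, because their centres are nearer to its start, and they are counted in the site scores but not in the gene score. With them, RNAPII-pS5 at the main +4.2 kb site scored 15.34 and 10.5 in ctrl/ctrl, 22.19 and 19.15 in IL-4 PT/ctrl, 5.52 in 1 of 2 ctrl/LPS lists, and 19.6 and 16.85 in IL-4 PT/LPS. It was higher with IL-4 PT under LPS (adjusted p = 0.0485), and at a small adjoining site (chr5:135569392-135570007) the IL-4 PT/LPS lists alone had peaks, of 7.08 and 7.46 (adjusted p = 0.0032). The first of these calls was lost on leaving out any 1 of 7 lists, all but the second ctrl/LPS list (adjusted p = 0.0729 to 0.183), and without the first ctrl/LPS list the log2 change was 1.52, and without the second 3.40, in place of 2.50. The adjoining site lost its call with a floor 4 times as high (adjusted p = 0.22).

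RNAPII-pS2 at Ccl24 +4.2 kb had a peak in all 8 lists of this experiment once those named Ccl26 were counted. It scored 16.99 and 14.11 in ctrl/ctrl, 19.03 and 20.75 in IL-4 PT/ctrl, 12.93 and 12.72 in ctrl/LPS, and 19.17 and 18.64 in IL-4 PT/LPS. The IL-4 PT/LPS lists were above the ctrl/LPS lists without passing the test (log2 change 0.62 ± 0.21, adjusted p = 0.115). At Ccl24 -9.5 kb RNAPII-pS2 stayed within 24.98 to 45.79 over all 8 lists and RNAPII-pS5 within 7.07 to 16.01, and no difference was called. The RNAPII-pS5 scores of IL-4 PT/ctrl (14.14 and 14.07) lay above those of ctrl/ctrl (12.17 and 7.07, adjusted p = 0.547), and the RNAPII-pS2 scores of ctrl/LPS (45.79 and 39.99) above those of ctrl/ctrl (39.25 and 24.98, adjusted p = 0.546), while the other groups compared overlapped. At -2.7 kb, the site of the 5.64-fold p65 difference, RNAPII-pS2 had a peak of 5.13 in the second ctrl/LPS list and 15.36 and 11.83 in IL-4 PT/LPS (adjusted p = 0.048). Leaving out any 1 of 6 lists other than the ctrl/LPS ones ended that call (adjusted p = 0.0839 to 0.202), and the change was 1.40 without the first ctrl/LPS list and 3.36 without the second.

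As a whole gene Ccl24 scored 55.95 and 48.89 for RNAPII-pS5 in ctrl/ctrl, 14.14 and 33.22 in IL-4 PT/ctrl, 24.01 and 28.27 in ctrl/LPS and 15.81 and 27.54 in IL-4 PT/LPS. No difference passed the test (log2 change -1.34 ± 0.48 for IL-4 PT alone, adjusted p = 0.163), and the value for IL-4 PT alone was -0.75 without the first IL-4 PT/ctrl list and -1.94 without the second. Counting the Ccl26-named peaks at +4.2 kb with Ccl24, chosen after seeing the data, moved it to -0.66, and turned the change under LPS from -0.61 to 0.32 (adjusted p = 0.516 and 0.554). The summed RNAPII-pS2 score of Ccl24 went from 91.24 and 85.26 in ctrl/LPS to 65.36 and 48.8 in IL-4 PT/LPS, lower in both lists but not called (log2 change -0.69 ± 0.28, adjusted p = 0.205).

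Polymerase at Ccl22 was found almost only with both agents. RNAPII-pS5 scored 16.84 and 14.19 at Ccl22 in the IL-4 PT/LPS lists, and the other 6 lists had no peak (adjusted p = 0.00577 against ctrl/LPS). This was 1 of 3 members called, where 11.5% of genes were. The shared position was the 3′ end, +6.5 kb (chr8:94750461-94753222), with RNAPII-pS5 scores of 10.62 and 10.8 (adjusted p = 0.00296). RNAPII-pS2 at the same site scored 2.9 in the first ctrl/LPS list and 10.53 and 10.24 in IL-4 PT/LPS (adjusted p = 0.00568, or 0.05 without the second IL-4 PT/LPS list, just over the threshold). As a gene score, RNAPII-pS2 at Ccl22 was 8.07 in 1 ctrl/LPS list and 19.46 and 10.24 in IL-4 PT/LPS and was not called (adjusted p = 0.19), although leaving out the first ctrl/LPS list gave 3.25 and a call (adjusted p = 0.0325) and leaving out the second gave 0.79 (0.429).

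At Ccl17 elongating polymerase scored highest upstream of the gene in this experiment. RNAPII-pS2 at -8.0 kb had no peak in ctrl/ctrl, scored 8.76 and 16.38 in IL-4 PT/ctrl and 12.87 and 7.55 in ctrl/LPS, and reached 24.51 and 22.02 in IL-4 PT/LPS. The rise with either agent alone was called (adjusted p = 0.00226 for IL-4 PT and 0.00265 for LPS), and the further 2.45-fold difference with IL-4 PT under LPS was not (log2 change 1.29 ± 0.36, adjusted p = 0.063). Both calls were lost with a floor 4 times as high (adjusted p = 0.0533 and 0.192) and in the upper 50% of peaks (0.102 and 0.363). RNAPII-pS2 at the 3′ end of Ccl17 (+1.5 kb) was 4.88 in 1 ctrl/ctrl list, 2.47 in 1 IL-4 PT/ctrl list, and 3.6 and 4.7 in IL-4 PT/LPS (adjusted p = 0.183 against ctrl/LPS, without a peak). The gene score was not called for IL-4 PT alone or LPS alone (adjusted p = 0.0537 and 0.098), but without the second ctrl/ctrl list, which held the lone 4.88 peak, both were (changes 3.40 and 2.65, adjusted p = 0.0167 and 0.0181), and without the first they were 1.49 and 0.74. RNAPII-pS5 at Ccl17 was low in this experiment, at no more than 7.02 in any list.

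Among the RNAPII-pS5 sites of the 3 genes, 1 of 4 was called for IL-4 PT alone (19.0% of all sites), 1 of 4 for LPS alone (34.5%) and 4 of 6 for IL-4 PT under LPS (18.3%), 3 of them higher. Among RNAPII-pS2 sites, 2 of 5 were called for IL-4 PT alone (26.2% of all sites), 1 of 7 for LPS alone (38.0%) and 3 of 7 for IL-4 PT under LPS (20.5%), 2 of them higher. RNAPII-pS5 at Ccl22 +6.5 kb and at the small site by Ccl24 +4.2 kb had peaks in the IL-4 PT/LPS lists alone. The direction of these calls was set beforehand by the filter.

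**Figure D4:**
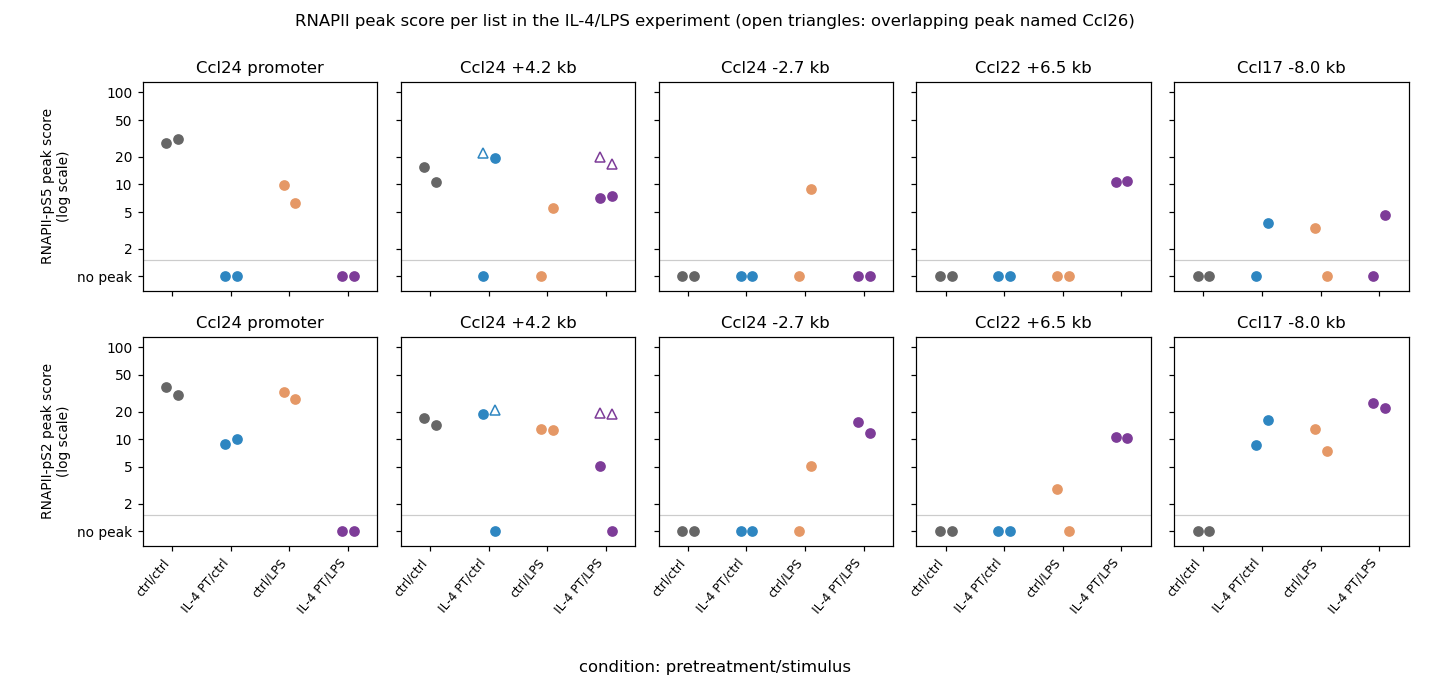
RNAPII-pS5 (top) and RNAPII-pS2 (bottom) peak score (log scale) in each list of the IL-4/LPS experiment at 5 sites, by condition; lists without a peak are on the bottom row and open triangles are overlapping peaks named Ccl26. At the Ccl24 promoter RNAPII-pS5 had no peak in the 4 IL-4 PT lists, and at Ccl22 +6.5 kb only the IL-4 PT/LPS lists had a RNAPII-pS5 peak.

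Whether the effect of IL-4 PT differed under LPS from its effect without LPS was tested as an interaction. For p65 it differed at 5 of 12 member sites (23.2% of all sites): more positive under LPS at Ccl24 -6.2 kb, Ccl22 -5.6 kb, Ccl17 -6.7 kb and the Ccl17 promoter, and more negative at Ccl17 +1.5 kb. It differed for RNAPII-pS5 at 1 of 3 genes, Ccl22 (6.11% of genes), and at 3 of 6 sites (17.1% of sites), and for RNAPII-pS2 at 2 of 7 sites (19.7%). At Ccl24 -2.7 kb, by contrast, the p65 interaction was 0.29 ± 0.33 and was not called (adjusted p = 0.632), with the ctrl/ctrl scores imputed. Of the 5 p65 sites with a called interaction, all but Ccl22 -5.6 kb had peaks in the lists of a single condition. The same was true of RNAPII-pS5 at Ccl22, so the filter set the direction of these beforehand. Values of the called interactions and the libraries they rest on are given in the closing section.

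The other genes of the IL-4 pathway were read from a list of 15 (Il4ra, Il2rg, Jak1, Jak3, Stat6, Socs1, Cish, Arg1, Retnla, Chil3, Mrc1, Irf4, Klf4, Pparg, Egr2). For H3K27Ac after 1 hr of IL-4, 14 were tested, 7 rose and 1 fell, with a median change of 0.26 beside -0.01 over all genes. The share called among all genes was 32.8%. Socs1, a feedback inhibitor of the JAK-STAT pathway, rose from 357.7 and 323.3 to 1291.0 and 1260.5 (log2 change 1.91 ± 0.07, adjusted p = 0.00181), and Arg1, the arginase of alternatively activated macrophages, from 227.1 and 228.5 to 820.1 and 703.0 (1.74 ± 0.09, adjusted p = 0.00382). Retnla, which encodes a secreted protein of alternatively activated macrophages, rose by 1.23 ± 0.16 (adjusted p = 0.0157), next to the 1.25 of Ccl24. Cish, Irf4, Klf4 and Egr2 also rose, and the mannose receptor gene Mrc1 fell (log2 change -0.34 ± 0.07, adjusted p = 0.0342). For RNAPII-pS5 at 1 hr only Socs1 and Retnla of the 15 were called, both higher, where Ccl24 was not and 1.05% of all genes were. After 24 hr of IL-4 without LPS, Socs1, Retnla, Chil3 and Egr2 of 14 tested were called higher for RNAPII-pS5, in the lists where Ccl24 lost its promoter peak. Of all genes with a peak in either group, 1080 of 12035 were called there. Under LPS, RNAPII-pS5 was called higher with IL-4 PT at Retnla and Irf4 of the 15, where 11.5% of genes were called. Ccl22 was called there too, in a direction set beforehand by the filter.

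The genes whose RNAPII-pS5 scores ran most like those of Ccl24 over the 12 lists of both experiments were Ms4a7 (Pearson r = 0.947), Tcf7l2 (0.935) and Kif18b (0.885), of 11515 genes compared. For Ccl17, with a peak in 7 of the 12 lists, they were Gm9855 (0.848), Adck4 (0.834) and Naa38 (0.812). The 12 lists come from 2 experiments and differ in size, from 14476 to 35424 peaks, so these values are a description. Ccl22, with RNAPII-pS5 peaks in 2 lists, was not compared.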

How the data were processed

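ChIP-seq peak lists from BMDMs cross-linked with disuccinimidyl glutarate and formaldehyde were used as deposited, 56 lists for 9 antibodies, with 2 lists per antibody and condition. The authors aligned reads to mm10 with BWA 0.7.10, used SAMtools 0.1.19, called peaks with MACS2 2.0.10 (H3K27Ac with HOMER 4.2), removed blacklisted regions and annotated each peak to the nearest gene start. The deposited scores of 52 lists are −log10 values of a p-value or q-value, the type being inferred from the values, and those of the 4 H3K27Ac lists are a tag signal normalized by the authors; no input control is stated. Peaks are called per library, so a score depends on sequencing depth as well as on binding, and the number of peaks is the only sign of depth. The study calls the replicates independent. The p-values rest on the spread between lists of a group, pooled over the groups of a model and moderated by limma over all features. A group set wholly to the lowest score has no spread of its own beyond the centring.

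Gene scores (sum of peaks with the gene name) and site scores (highest peak of sites merged at 1 bp overlap or more) were put on a log2 scale, with missing values set to the lowest score of the antibody and experiment (1.31 to 9.1), and centred. Features with a peak in at least 2 lists were tested with limma 3.58.1 in R 4.3.3, with 1 model of 4 groups per antibody in the IL-4/LPS experiment, and Benjamini-Hochberg adjustment at 0.05. The test was checked on simulated scores of genes with a peak in every list. Site scores and interactions were not simulated, nor were genes that lack peaks in whole groups. Features without a peak in either group compared were left out of the counts (5 gene and 18 site comparisons). The study compared reads with DiffBind, which needs reads, so limma on scores took its place. Groups came from the labels. Named genes were the 3 members, their 8 chromosome neighbours, 15 IL-4 pathway genes, 2 receptors and the 3 genes most like each member in RNAPII-pS5 score. The members and lists were chosen with earlier results of these data known. Alternatives were no centring, a floor 4 times as high, intergenic peaks left out, the highest peak of a gene, no filter, an overlap of 100 bp, the upper 50% of peaks, a replicate block and leaving out each list. Sequences came from RefSeq and the mm10 genome.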

Additional observations from a re-analysis of the deposited data

Results flagged for a closer look

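Each of the following results stood out because the effect of IL-4 PT under LPS differed, by an interaction term in limma, from its effect without LPS. Values are that difference in log2 units relative to the median feature, with lists without a peak imputed, so they are no bounds.

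For RNAPII-pS5 the difference was 3.213 for the Ccl22 gene score (adjusted p = 0.0173) and 2.721 at Ccl22 +6.5 kb (adjusted p = 0.00973). Both rest on the IL-4 PT/LPS lists being the only ones with a peak. The gene-level call was lost on leaving out any 1 of the 6 other lists (difference 3.16 to 3.27). The +6.5 kb call was kept without any 1 of those 6 (difference 2.66 to 2.78). Neither could be fitted once an IL-4 PT/LPS list was left out, so dependence on the lists that carry the result was not tested. For RNAPII-pS2 the same Ccl22 site gave 2.377 (adjusted p = 0.0231), and any 1 of 6 lists, all but the ctrl/LPS ones, was enough to end it (0.0613 to 0.0876).

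At the Ccl24 promoter the differences had opposite signs. RNAPII-pS2 gave -2.614 (adjusted p = 0.00584), since its score fell from 36.56 and 30.11 to 8.87 and 10.16 with IL-4 PT alone but from 32.52 and 27.42 to no peak under LPS. RNAPII-pS5 gave 1.759 (adjusted p = 0.0411), since no peak was left with IL-4 PT in either case and the score with LPS alone was already lower. The RNAPII-pS5 value was no longer called without any 1 of 7 lists, all but the first ctrl/LPS list (adjusted p = 0.085 to 0.122), and the RNAPII-pS2 value was lost with a floor 4 times as high (0.106). At the small site by the 3′ end of Ccl24 (+4.2 kb) RNAPII-pS5 gave 2.161 (adjusted p = 0.0104, or 0.335 with a floor 4 times as high).

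For p65 the difference was 4.035 at Ccl24 -6.2 kb (adjusted p = 0.00257), kept under every alternative that gave a value (none without either IL-4 PT/LPS list). Its direction was set beforehand by the filter, so those alternatives could not test it. At Ccl22 -5.6 kb the difference was 1.488 (adjusted p = 0.03). It was 1.20 to 1.79 with 1 list left out, and the call was lost on leaving out any 1 of the 6 lists other than ctrl/LPS. At Ccl17 it was 1.55 at -6.7 kb (adjusted p = 0.04) and 1.763 at the promoter (0.0346), and both were lost on leaving out any 1 of the 6 lists other than IL-4 PT/LPS (0.0782 to 0.115 and 0.0733 to 0.0989). Ccl17 +1.5 kb gave -2.501 (adjusted p = 0.00426), which was lost without the first or the second IL-4 PT/LPS list (0.0504 and 0.0505).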

How the results depend on the processing

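Depth is unknown and there were 2 lists per group, so small differences could not be seen. Most calls in the IL-4/LPS experiment compare peaks with lists that had none, and those calls depend on the score given to a missing peak. Where 1 list was left out, the lone list of its group was assumed to vary like the others. The cause of the changes below was not tested.

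With a floor 4 times as high, these log2 changes turned sign: RNAPII-pS2 at Ccl17 -8.0 kb in the interaction (0.14), p65 with LPS at the Ccl17 gene (-0.58), Ccl24 -2.7 kb (-0.29), Ccl22 -5.6 kb (-0.99), Ccl17 -8.0 kb (-0.96) and Ccl17 +1.5 kb (-0.91), p65 at Ccl17 -6.7 kb with IL-4 PT under LPS (-0.10) and in the interaction (-0.29), and p65 at the Ccl17 promoter in the interaction (-0.12). For H3K27Ac this floor (36.4) lies above every score at Ccl17 and Ccl24 -9.5 kb and sets them equal, so the value it gives at Ccl17 (0.0061) is the centring alone and tests nothing. For p65 it is 5.24, between the lowest and highest scores of the Ccl17 sites with LPS (4.21 and 9.0) and of Ccl22 -5.6 kb with LPS alone (3.77 and 5.63). The same floor ended the call of p65 at Ccl22 with LPS (0.17), and brought calls for RNAPII-pS2 at Ccl24 after 1 hr (-2.13), RNAPII-pS2 at Ccl17 with IL-4 PT alone (1.35) and the p65 interaction at Ccl22 (0.87), which was also called without centring (1.52). In the upper 50% of peaks p65 at Ccl22 -5.6 kb with LPS was -0.90.

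Without intergenic peaks, RNAPII-pS2 turned sign at Ccl17 for IL-4 PT alone (-0.33) and for LPS alone (-0.997) and at Ccl22 for IL-4 PT under LPS (-0.20), RNAPII-pS5 at Ccl24 with IL-4 PT alone was called (-4.43), and p65 lost its call at Ccl17 with LPS (0.52) and at Ccl22 with IL-4 PT under LPS (0.72). The latter was also lost with the highest peak in place of the sum (0.86) and with no filter (1.01, adjusted p = 0.0527).

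Replicate numbers did not pair the lists (correlation of deviations -0.027 to 0.066). With the replicate number as a block, p65 at Ccl22 with IL-4 PT under LPS (1.01, adjusted p = 0.0834) and the RNAPII-pS5 interaction at Ccl22 (3.21, adjusted p = 0.0556) were no longer called. Nor were 7 site results: with IL-4 PT under LPS, RNAPII-pS5 at the main Ccl24 +4.2 kb site (adjusted p = 0.0798) and RNAPII-pS2 at Ccl24 -2.7 kb (0.0682); with LPS alone, p65 at Ccl22 -5.6 kb (0.0701); and in the interaction, RNAPII-pS5 at the Ccl24 promoter (0.0761) and p65 at Ccl22 -5.6 kb (0.0566), Ccl17 -6.7 kb (0.0683) and the Ccl17 promoter (0.0543).

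Leaving out each list in turn, the change ranged from 1.49 to 3.40 for RNAPII-pS2 at Ccl17 with IL-4 PT alone and from 0.74 to 2.65 with LPS alone, from 0.79 to 3.25 for RNAPII-pS2 at Ccl22 with IL-4 PT under LPS, from 3.16 to 3.27 for the RNAPII-pS5 interaction at Ccl22, from 0.61 to 2.54 for p65 at Ccl24 with IL-4 PT alone, and from 0.91 to 1.12 for p65 at Ccl22 with IL-4 PT under LPS. The RNAPII-pS5 interaction at Ccl22 could not be fitted once an IL-4 PT/LPS list was left out. The H3K27Ac calls at Ccl24 were kept without any 1 list.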

Other observations

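Some neighbours of the chemokine genes on the chromosome were also called for H3K27Ac after 1 hr of IL-4. Of 8 listed neighbours 6 were tested, 3 rose and 1 fell, where 32.8% of all genes tested were called. Near Ccl24, Hip1 rose by 0.33 ± 0.05 (adjusted p = 0.02) and Rhbdd2 by 0.63 ± 0.11 (adjusted p = 0.0259) on the log2 scale, less than the 1.25 of Ccl24. Por, 1 of the 3 counted as risen, had peaks in the IL-4 lists alone (64.9 and 285.0, adjusted p = 0.0392). Por passed the filter only through those lists, so the direction of its call was set beforehand. Its untreated scores were imputed. On chromosome 8, where H3K27Ac at Ccl17 did not pass the test, the chemokine gene Cx3cl1 fell from 47.6 and 48.1 to 28.8 and 28.8 (log2 change -0.73 ± 0.05, adjusted p = 0.00565).

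Of the receptors, Ccr3, the receptor of Ccl24, fell in H3K27Ac from 347.5 and 369.6 to 201.0 and 195.1 (log2 change -0.85 ± 0.06, adjusted p = 0.00644) while its ligand gene rose. Ccr4, the receptor of Ccl17 and Ccl22, had too few H3K27Ac peaks for a test.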
